A study of Mus musculus with 2 samples.

Results

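The tumour necrosis factor (TNF) superfamily comprises small ligands, most of them anchored in the membrane, and the receptors that they gather into trimers. Protein-coding genes of the GENCODE M21 annotation counted as members if their symbol begins with Tnfsf or Tnfrsf, together with Tnf, Lta, Ltb, Ltbr, Fas, Fasl, Cd40, Cd40lg and Cd70. This gave 41 of 21938 protein-coding genes, namely 18 ligands and 23 receptors. The rule itself uses no measured value, though it was set with earlier results of these data known.

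DNase I hypersensitivity was measured in thymus of female B6CASTF1/J mice aged 18 to 20 months. These mice are first-generation hybrids of the B6 and CAST strains, and the labels name no treatment, transgene or other allele. There were 2 libraries in 1 group, biological replicates 1 and 2 of the labels, with no younger, male or treated animals beside them. The libraries carry 1 donor record and separate biosample records. No source used here says that separate animals were taken, and their spread may be technical only.

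Receptors of the family signal through TRAF adaptors to NF-kB and related pathways, and a subset with a death domain can also start apoptosis through FADD and caspase 8. In the thymus, developing T cells carry RANKL, lymphotoxin and CD40 ligand to medullary epithelium, whose RANK, lymphotoxin beta receptor and CD40 drive its growth and the display of tissue antigens. Other ligands and receptors of the family act as co-stimulators of mature and regulatory T cells or as survival signals of B cells.

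DNase I cuts where chromatin is accessible, and a peak marks a stretch with many cuts. Each library has 2 peak lists as the authors deposited them, and the shorter, of 50648 and 49872 peaks in replicates 1 and 2, is called the main list here. A gene was counted as open if the centre of a main-list peak lay within 1 kb of any of its annotated start sites in both libraries. Its promoter signal is the value of the strongest of these peaks, in the deposited units, whose scale is not stated. All signals were whole multiples of a step of 0.00895 in replicate 1 and 0.00652 in replicate 2. The depth of sequencing is unknown, and there is no test in what follows: 2 libraries of 1 group allow none between conditions.

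Of 11 T cell and thymocyte markers 10 were open, against 53.4% of all protein-coding genes, and Cd4 had a main-list peak in replicate 2 only. Of 8 thymic epithelial markers 4 were open (Aire, Epcam, Ly75 and Ccl25), and the epithelial master regulator Foxn1 and the cortical proteasome gene Psmb11 had no promoter peak in any list. Open promoters numbered 1 of 6 for B cells, 0 of 6 for myeloid and dendritic cells, 2 of 4 for fibroblasts, 2 of 4 for endothelium and 0 of 3 for hepatocytes. Every value below is a mixture over all cells of the tissue. Fewer cells with an open site and less accessibility per cell cannot be told apart, and the cell type that carries a peak was not measured.

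Promoters of ligands were open for 8 of 18 genes (44.4%) and those of receptors for 15 of 23 (65.2%). Over all protein-coding genes the share was 53.4%, so the ligands lay below it and the receptors above it. With the stronger 50% of peaks alone both lay below it, with 22.2% of ligands and 39.1% of receptors against 46.2% of all genes. Together 23 of 41 members (56.1%) were open, close to the 53.4% of all genes. The groups are small, and no difference between ligands and receptors, or of either from all genes, was tested. Receptors have more annotated start sites than ligands, with medians of 1 for ligands, 2 for receptors and 2 for all genes, and a gene with more start sites has more room for a peak. With the most 5′ start site alone the counts stayed at 8 ligands and 15 receptors.

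Where member promoters were open, their signal was low for this tissue. The median was 1.82 for open ligands and 1.96 for open receptors, against 5.59 for all open protein-coding genes. The order of ligands and receptors differed between libraries, with medians of 1.81 for ligands and 2.25 for receptors in replicate 1, and of 1.95 and 1.68 in replicate 2. Only Ltb, 1 of 23 open members, lay above the median of all open genes. The strongest promoter peaks of the 2 libraries overlapped at every one of the 23 members. None of the 68 promoter peaks of members lay within 1 kb of a start site of another protein-coding gene.

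**Figure D1:**
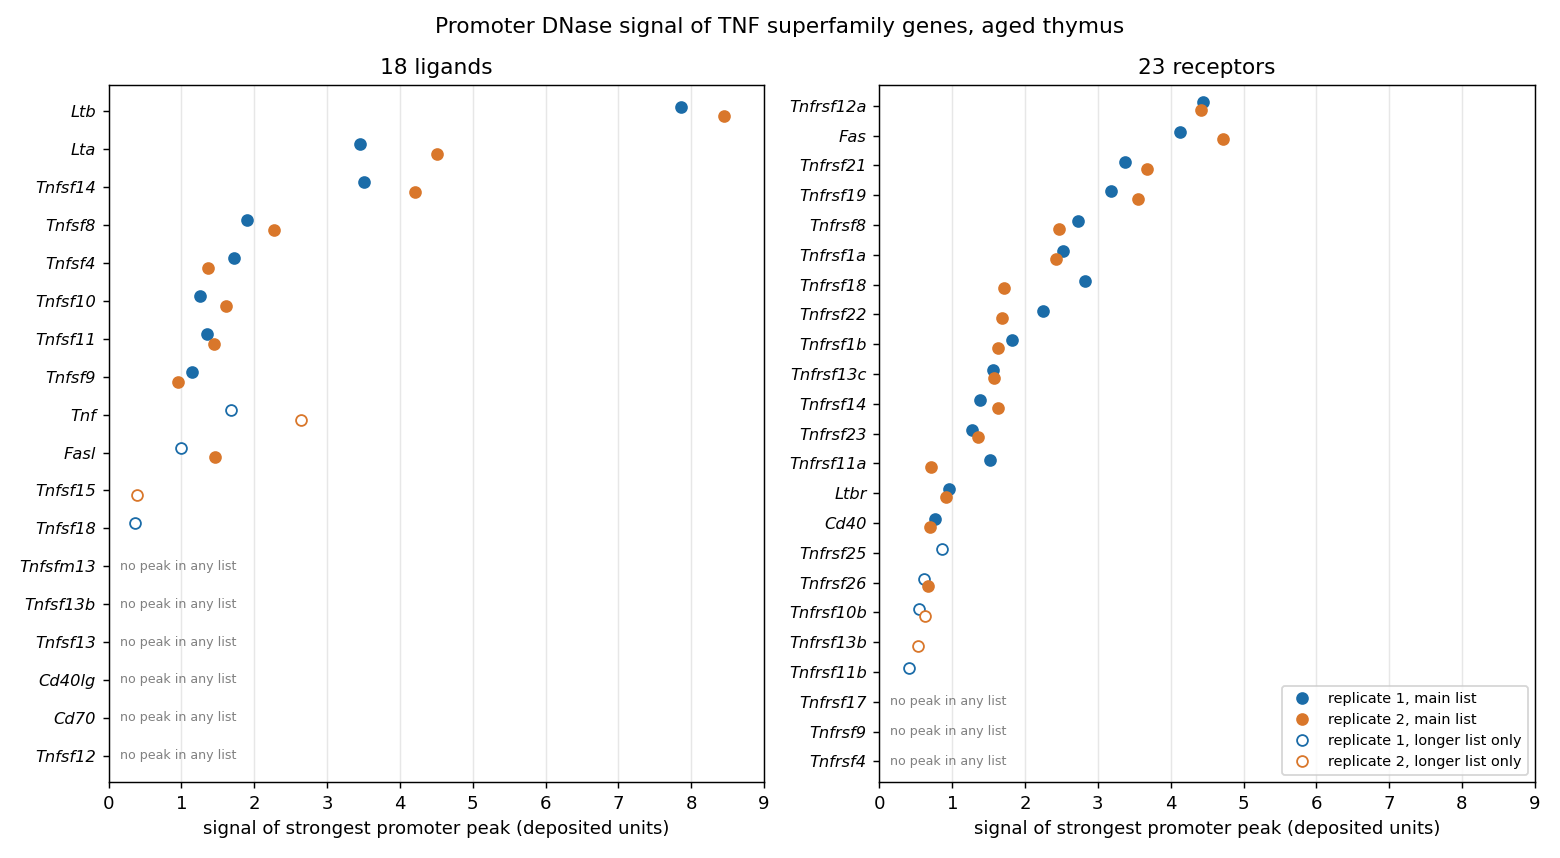
Signal of the strongest promoter peak (x axis, deposited units) for 18 ligands (left) and 23 receptors (right), 1 filled point per library for the main list and open points where only the longer list held a peak. Ltb stands apart at 7.87 and 8.45, while the open receptors lie between 0.69 and 4.72; the grey text marks members without a promoter peak in any list.

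Among ligands the strongest promoter was that of Ltb (ENSMUSG00000024399.5, chr17:35194439-35196320, plus strand), which encodes lymphotoxin beta, the membrane anchor of the lymphotoxin trimer. Its signal was 7.87 in replicate 1 and 8.45 in replicate 2 (mean 8.16 ± 0.412, SD, n = 2). Its neighbour Lta, which encodes lymphotoxin alpha, had 3.45 and 4.51 (mean 3.98 ± 0.745). Replicate 2 was the higher at both genes. Tnf itself, the inflammatory cytokine gene between them, was not open: the main list held no peak within 1 kb of its start sites in either library. The longer lists did hold one, with signals of 1.68 in replicate 1 and 2.64 in replicate 2. The lowest q-value of a base run within 1 kb was 0.00816 in replicate 1 and 0.000726 in replicate 2.

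The 3 genes lie within 10.9 kb, and the sequences of 4 of its accessible sites are shown because they include the strongest sites in spans of members that do not lie at the start of a gene outside the family. They are the promoter of Ltb, a coding exon of Ltb, the promoter of Tnf (from the longer-list peak of replicate 2) and an intron of Tnf. Each is read 5′ to 3′ on the strand of its gene, from the GRCm38 reference of RefSeq, which is the B6 genome; the CAST allele of the hybrid can differ. Capitals mark bases inside footprints, short stretches protected from cutting, that were called in both libraries. Promoter stretches end at the annotated start.
Ltb promoter (chr17:35194281-35194438, plus strand): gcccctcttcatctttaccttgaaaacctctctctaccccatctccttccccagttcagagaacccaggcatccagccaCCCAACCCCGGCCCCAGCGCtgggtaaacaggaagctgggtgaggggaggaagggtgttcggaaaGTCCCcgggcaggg
Ltb coding exon (chr17:35195741-35195980, plus strand): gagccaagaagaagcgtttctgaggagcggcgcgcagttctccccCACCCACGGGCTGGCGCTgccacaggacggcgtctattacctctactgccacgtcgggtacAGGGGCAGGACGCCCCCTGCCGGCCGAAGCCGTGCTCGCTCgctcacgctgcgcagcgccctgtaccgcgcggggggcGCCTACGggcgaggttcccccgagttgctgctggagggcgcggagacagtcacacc
Tnf promoter (chr17:35202008-35202169, minus strand): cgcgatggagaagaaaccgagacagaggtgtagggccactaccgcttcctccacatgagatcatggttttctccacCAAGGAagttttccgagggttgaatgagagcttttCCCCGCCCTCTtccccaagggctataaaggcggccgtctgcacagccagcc
Tnf intron (chr17:35200501-35200780, minus strand): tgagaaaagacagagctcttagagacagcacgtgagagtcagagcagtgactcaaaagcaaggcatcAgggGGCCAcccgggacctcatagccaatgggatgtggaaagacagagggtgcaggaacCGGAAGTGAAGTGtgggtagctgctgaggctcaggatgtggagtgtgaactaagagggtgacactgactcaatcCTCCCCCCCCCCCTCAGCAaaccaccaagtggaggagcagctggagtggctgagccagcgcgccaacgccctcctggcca

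Both Ltb sites held a consensus match that touched a footprint of both libraries. In the promoter it was the NF-kB consensus, and in the exon it was that of CTCF, the insulator protein. Both strands were searched. Among windows of the same length centred on the main-list peaks of replicate 1, 5.59% held the NF-kB consensus and 11.8% that of CTCF. The exon site, 1234 bp after the start of Ltb, was stronger than the promoter in both libraries, with signals of 10.1 in replicate 1 and 9.17 in replicate 2. It was also the strongest peak beyond 1 kb of the start sites for all 3 genes, since their flanks overlap.

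The Tnf intron site, 1363 bp into the gene, had signals of 4.13 in replicate 1 and 5.58 in replicate 2. It held the ETS consensus CCGGAAG once, touching a footprint of both libraries, against 8.10% of windows of the same length. The E-box CAGCTG was found once, outside the shared footprints, against 20.5%. The site is named by its centre, which lies in the intron. Its 3′ end, where the E-box lies, was not annotated apart and can reach into the next exon. The shown Tnf promoter held none of the 7 consensus sequences searched. With the promoter window widened to 2500 bp, this intron site alone brought Tnf among the open genes. Upstream of Ltb, a site in an intron of the neighbouring gene Lst1, 8298 bp before the start of Ltb, had 6.29 in replicate 1 and 4.98 in replicate 2. Around Tnf the main list thus held peaks on both sides of the start, but none at it.

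**Figure D2:**
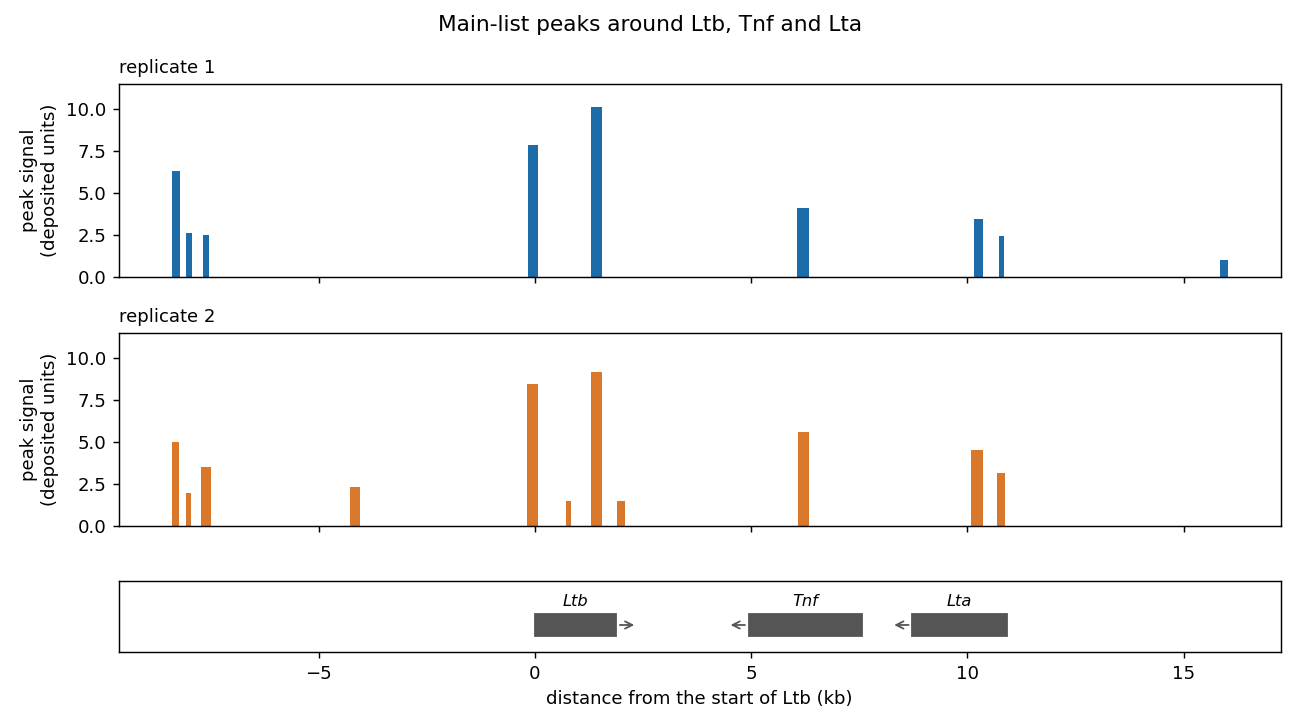
Main-list peaks around Ltb, Tnf and Lta by distance from the start of Ltb (x axis, kb), with peak signal in deposited units (y axis), replicate 1 above replicate 2 and gene bodies with their direction at the bottom. In both libraries the highest bar is the Ltb exon site (10.1 and 9.17), and no bar stands at the right-hand end of Tnf, where that gene starts.

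Of 7 ligands that co-stimulate T cells 4 were open. The share over all protein-coding genes, 53.4%, stands beside this and the later counts by function, which rest on few genes. Tnfsf14, which encodes LIGHT, a ligand of HVEM and of the lymphotoxin beta receptor, had 3.51 in replicate 1 and 4.20 in replicate 2 (mean 3.85 ± 0.490). Tnfsf8, which encodes CD30 ligand, had 1.90 and 2.28. Both were higher in replicate 2. Tnfsf4, which encodes OX40 ligand, had 1.73 in replicate 1 and 1.36 in replicate 2. Tnfsf9, which encodes 4-1BB ligand, had 1.15 and 0.95. These were higher in replicate 1, and in each case the libraries differed by less than the gap to Tnfsf14. Tnfsf18, which encodes GITR ligand, had a longer-list peak in replicate 1 only, of 0.36. Cd70 and Cd40lg, which encode CD70 and CD40 ligand, had no promoter peak in any list and no base run with a listed q-value within 1 kb.

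Tnfsf14, Cd70 and Tnfsf9 are neighbours on chromosome 17, within 88.9 kb, and Cd70 lies between 2 open genes. The Tnfsf14 promoter and the site upstream of Tnfsf9 are shown because they are the strongest sites of these ligands. The upstream site lies 8584 bp before the start of Tnfsf9, in an intron of the long noncoding RNA gene Gm11110, and had 5.49 in replicate 1 and 3.10 in replicate 2, above the Tnfsf9 promoter in both. Neither stretch held any of the 7 consensus sequences. The Tnfsf14 stretch is only part of its peak and ends at the start. In the window around the start used for the promoter counts below, Tnfsf14 held the RUNX consensus TGTGGT, outside the shown stretch. Bases are marked as above.
Tnfsf14 promoter (chr17:57194178-57194477, minus strand): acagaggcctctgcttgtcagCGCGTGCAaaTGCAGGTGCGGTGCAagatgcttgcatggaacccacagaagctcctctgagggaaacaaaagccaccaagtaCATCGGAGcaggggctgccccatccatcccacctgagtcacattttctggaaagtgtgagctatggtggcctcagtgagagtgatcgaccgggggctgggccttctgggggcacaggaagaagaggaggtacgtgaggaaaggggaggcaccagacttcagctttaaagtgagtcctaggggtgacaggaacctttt
Tnfsf9 upstream site (chr17:57096661-57096820, plus strand): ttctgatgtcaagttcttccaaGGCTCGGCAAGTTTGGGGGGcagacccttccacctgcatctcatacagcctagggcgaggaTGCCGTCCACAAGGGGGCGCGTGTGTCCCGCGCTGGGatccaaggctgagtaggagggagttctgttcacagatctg

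Cd40lg had no open promoter but a site beyond its 3′ end. This site, 16207 bp from its start at chrX:57228241-57228460, had the same borders in both libraries and signals of 1.66 in replicate 1 and 1.58 in replicate 2. No protein-coding gene starts within 1 kb of it. A site in an intron of Cd40lg was in the main list of replicate 1 (0.814) and in the longer list alone of replicate 2 (0.750).

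Of the ligands that act on tissue cells, Tnfsf11 was open and Tnfsf12 was not. Tnfsf11 encodes RANKL, which drives medullary thymic epithelium and, in bone, osteoclasts. Its promoter signal was 1.35 in replicate 1 and 1.44 in replicate 2. The strongest peak lay 952 bp into the gene, and the peak at the start itself had 1.07 in both libraries. Tnfsf12, which encodes TWEAK, had no promoter peak in any list. Nor had its neighbour Tnfsf13, which encodes the B cell factor APRIL, or Tnfsfm13, the readthrough of both. The span of each of these 3 genes held 2 peaks, and both lie within 1 kb of a start of the neighbouring gene Senp3, with the stronger at 10.7 in replicate 1 and 9.99 in replicate 2. Tnfsf13b, which encodes the B cell survival factor BAFF, had no peak in its span in either library. Thus 0 of 3 B cell ligands were open, with the readthrough Tnfsfm13 counted beside Tnfsf13.

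Of 3 death ligands 1 was open by the main list, and 2 had a longer-list promoter peak in both libraries. Tnfsf10, which encodes TRAIL, was open, with 1.25 in replicate 1 and 1.62 in replicate 2. Its strongest site lay 28659 bp from the start, beyond the 3′ end, with 3.02 and 2.10. Fasl, which encodes Fas ligand, had a main-list peak of 1.45 in replicate 2, and in replicate 1 a peak of 0.99 in the longer list only. Tnfsf15, which encodes the DR3 ligand TL1A, had a longer-list peak of 0.38 in replicate 2 and none in replicate 1.

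Among receptors the strongest promoter was that of Tnfrsf12a (ENSMUSG00000023905.15, chr17:23675445-23677468, minus strand), which encodes Fn14, the receptor of TWEAK. Its signal was 4.44 in replicate 1 and 4.42 in replicate 2 (mean 4.43 ± 0.0111). All 4 receptors of the tissue group were open. Tnfrsf19, which encodes TROY, had 3.19 and 3.55. Tnfrsf11a, which encodes RANK, had 1.52 in replicate 1 and 0.70 in replicate 2, and Ltbr, which encodes the lymphotoxin beta receptor, had 0.95 and 0.91. By the ratio of its libraries, though not by their difference, RANK stood furthest apart among the open members. After subtraction of the median log2 ratio of replicate 2 over replicate 1 over all open genes (-0.14), its ratio was -0.97, outside the central 95% of open genes (-0.67 to 0.60). The other 22 open members lay inside that range.

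Receptors with a death domain were open for 3 of 5 genes. Fas (ENSMUSG00000024778.13, chr19:34290666-34327772, plus strand), which encodes the receptor of Fas ligand, had 4.13 in replicate 1 and 4.72 in replicate 2 (mean 4.42 ± 0.418). Tnfrsf21, which encodes DR6, had 3.37 and 3.67, and Tnfrsf1a, which encodes TNF receptor 1, had 2.51 and 2.43. The spread between libraries at these genes was small beside the differences between Fas and Tnfrsf1a. Tnfrsf10b, the mouse TRAIL receptor with a death domain, had longer-list peaks only, of 0.55 in replicate 1 and 0.63 in replicate 2. Its main-list peaks lay further in the gene, the one in an intron about 6998 bp from the start with 1.40 in replicate 1 and 1.62 in replicate 2. Tnfrsf25, which encodes DR3, had a longer-list peak of 0.86 in replicate 1 only.

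Promoter sequences of Tnfrsf12a and Fas are shown as the strongest receptor promoters, that of Tnfrsf11a for its difference between libraries, and an intron of Tnfrsf19 as a site stronger than its own promoter. Strand, build and capitals are as above.
Tnfrsf12a promoter (chr17:23677469-23677620, minus strand): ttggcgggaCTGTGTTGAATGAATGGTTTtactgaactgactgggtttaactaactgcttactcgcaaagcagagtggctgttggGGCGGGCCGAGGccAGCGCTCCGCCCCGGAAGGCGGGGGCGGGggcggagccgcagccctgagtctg
Fas promoter (chr19:34290561-34290665, plus strand): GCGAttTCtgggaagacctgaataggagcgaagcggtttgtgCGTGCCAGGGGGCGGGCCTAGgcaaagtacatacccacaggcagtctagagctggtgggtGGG
Tnfrsf11a promoter (chr1:105780501-105780717, plus strand): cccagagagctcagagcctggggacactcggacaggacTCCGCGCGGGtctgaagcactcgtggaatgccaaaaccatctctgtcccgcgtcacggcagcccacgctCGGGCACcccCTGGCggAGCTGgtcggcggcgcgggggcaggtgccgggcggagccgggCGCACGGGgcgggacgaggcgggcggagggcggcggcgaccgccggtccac
Tnfrsf19 intron (chr14:61012461-61012660, minus strand): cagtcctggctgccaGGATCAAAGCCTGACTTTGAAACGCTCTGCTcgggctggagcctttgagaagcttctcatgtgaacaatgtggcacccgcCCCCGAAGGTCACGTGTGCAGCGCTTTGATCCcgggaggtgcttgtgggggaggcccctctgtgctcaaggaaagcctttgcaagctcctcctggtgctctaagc

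The Tnfrsf12a promoter held the ETS consensus CCGGAAG once, touching a shared footprint, against 5.73% of windows of its length. The Tnfrsf19 intron site, 25330 bp from the nearest start of the gene, had 5.93 in replicate 1 and 5.68 in replicate 2 with the same borders in both. It held the TCF7 and LEF1 consensus CTTTGA 4 times on its 2 strands, and 3 of these touched footprints of both libraries. At least 1 such match was found in 11.0% of windows of 200 bases. The same site had 1 stretch that reads as the NF-kB consensus on both strands, outside the shared footprints (6.98% of windows hold that consensus). The Fas and Tnfrsf11a stretches held none of the 7. The Fas stretch is only the part of its peak before the start. In the wider window around the start used for the promoter counts below, Fas held CTTTGA, outside the shown stretch, and Tnfrsf11a held none. A match describes letters and does not show that a factor was bound.

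Decoy receptors, which bind ligand without a death signal, were open for 2 of 3 genes. Tnfrsf22 and Tnfrsf23, decoy TRAIL receptors of the mouse, had 2.25 in replicate 1 and 1.68 in replicate 2, and 1.27 and 1.35. They lie beside Tnfrsf26 on chromosome 7, within 78.2 kb. Tnfrsf26 had a main-list peak of 0.67 in replicate 2 and a longer-list peak of 0.61 in replicate 1. Tnfrsf11b, which encodes osteoprotegerin, the soluble decoy for RANKL, had a longer-list peak of 0.40 in replicate 1 only and no main-list peak in its span.

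Co-stimulatory receptors were open for 3 of 5 genes. Tnfrsf8, which encodes CD30, had 2.73 in replicate 1 and 2.47 in replicate 2. Tnfrsf18, which encodes GITR, a receptor high on regulatory T cells, had 2.83 and 1.72, and Tnfrsf14, which encodes HVEM, had 1.39 and 1.63. Tnfrsf1b, which encodes TNF receptor 2 and recruits TRAF proteins without a death domain, was also open, with 1.83 in replicate 1 and 1.62 in replicate 2. Tnfrsf4 and Tnfrsf9, which encode OX40 and 4-1BB, had no promoter peak in any list. Tnfrsf4 lies within 15.1 kb of Tnfrsf18 on chromosome 4, and the only main-list peak of its span in replicate 1 was that of the Tnfrsf18 promoter. In replicate 2 the Tnfrsf4 span held 3 main-list peaks, 2 of them over 1 kb from any start, with 1.42 and 1.40. Replicate 1 had longer-list peaks at both of these sites, of 0.77 and 0.91. Tnfrsf9 depended on the annotation: in the comprehensive one it has a start beside that of Park7, where peaks of 10.5 in replicate 1 and 9.50 in replicate 2 lie.

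B cell receptors of the family were open for 2 of 4 genes. Tnfrsf13c, which encodes the BAFF receptor, had 1.56 in replicate 1 and 1.57 in replicate 2. Cd40, which is carried by B cells, dendritic cells and thymic epithelium, had 0.76 and 0.69, the lowest of all open members by the mean. Its site beyond the 3′ end, 19420 bp from the start, was stronger, with 1.96 and 0.92. Tnfrsf13b, which encodes TACI, had a longer-list peak of 0.53 in replicate 2 only, and Tnfrsf17, which encodes BCMA, had none. The strong peak in the span of Tnfrsf17, of 10.1 in replicate 1 and 6.74 in replicate 2, lies at a start of its neighbour Snx29.

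By the other readouts the order of ligands and receptors was alike. A promoter peak of the longer list in both libraries was found at 10 of 18 ligands and 17 of 23 receptors, against 57.8% of all genes. A base run with a q-value of at most 0.001 within 1 kb of a start site in both libraries was found at 9 of 18 ligands and 15 of 23 receptors, against 54.2% of all genes. These lists come from the same 2 libraries and are not separate evidence. No promoter peak in any list of either library was found at 6 ligands and 3 receptors.

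Ligand and receptor promoters were combined into 23 textbook pairs. Both partners were open in 7 pairs: Lta with Tnfrsf1a and with Tnfrsf1b, Ltb with Ltbr, Tnfsf14 with Ltbr and with Tnfrsf14, Tnfsf8 with Tnfrsf8, and Tnfsf11 with Tnfrsf11a. The receptor alone was open in 7 pairs, namely Tnf with both of its receptors, Fasl with Fas, Cd40lg with Cd40, Tnfsf12 with Tnfrsf12a, Tnfsf13b with Tnfrsf13c, and Tnfsf18 with Tnfrsf18. The ligand alone was open in 4 pairs, Tnfsf4 with Tnfrsf4, Tnfsf9 with Tnfrsf9, Tnfsf10 with Tnfrsf10b, and Tnfsf11 with the decoy Tnfrsf11b. The list did not pair Tnfsf10 with its decoy receptors Tnfrsf22 and Tnfrsf23, both of which were open. In the 5 remaining pairs neither was open. These were Tnfsf13 with Tnfrsf13b and with Tnfrsf17, Tnfsf13b with the same receptors, and Tnfsf15 with Tnfrsf25. Pairs share genes and are no independent units. Taken singly, 44.4% of ligands and 65.2% of receptors were open, against 53.4% of all genes. Unmatched ligands and receptors were not counted, so whether partners were open together more often than others was not tested.

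Beyond promoters, peaks were counted in each gene and 10 kb on each side. At least 1 peak in both libraries was found at 13 of 18 ligands and 21 of 23 receptors, against 69.3% of all protein-coding genes. The median was 2 peaks for ligands, 2.5 for receptors and 2 for all genes. Genes of ligands are shorter, with a median length of 10.1 kb, against 17.3 kb for receptors and 17.4 kb for all genes. A peak over 1 kb from any start site of a protein-coding gene was found in both libraries at 10 of 18 ligands and 13 of 23 receptors, against 42.9% of all genes. The spans of all members together held 95 different peaks in replicate 1 and 122 in replicate 2, of which 55 and 76 lay away from starts and 9 and 9 at starts of other genes. Of these peaks 87 of replicate 1 and 88 of replicate 2 overlapped a main-list peak of the other library.

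The 8 members with the most peaks were Tnfrsf8, Ltb, Tnfrsf1b, Tnf, Lta, Tnfrsf18, Tnfrsf9 and Tnfrsf12a. Tnfrsf8 had 7 peaks in replicate 1 and 17 in replicate 2. With peaks within 500 bp joined it had 7 and 12, and 9 of its peaks in replicate 2 had signals under 0.5, against 0 in replicate 1. Its strongest site away from the start lay in an intron, 2316 bp from the start, with 3.74 in replicate 1 and 2.70 in replicate 2. Ltb had 8 and 11 peaks, Tnf 6 and 8, and Lta 6 and 7, and these counts share peaks. Replicate 2 held more peaks at each of these 4 genes.

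Tnfrsf1b, the neighbour of Tnfrsf8 on chromosome 4, had 8 peaks in each library. Its strongest was at chr4:145214481-145214680 as called in replicate 1, in its 3′ untranslated region, with 5.74 in replicate 1 and 3.22 in replicate 2, above its promoter in both. Tnfrsf18 had 5 peaks in replicate 1 and 7 in replicate 2, and the strongest away from its start lay between genes, 5828 bp from the start, with 1.91 and 2.29. Tnfrsf9 had 5 and 7, but its strongest, of 15.7 in replicate 1 and 13.9 in replicate 2, lay at a start of Park7. Tnfrsf12a had 5 and 6, with its strongest, of 9.35 and 7.83, at the starts of Hcfc1r1 and Thoc6. Counts at Tnfrsf9 and Tnfrsf12a therefore include peaks of neighbours. Tnfrsf14, Tnfrsf1a and Tnfsf11 equalled Tnfrsf12a with a mean of 5.5 peaks. Of these, Tnfrsf1a had 3 in replicate 1 and 8 in replicate 2, with an intron site of 4.59 in replicate 1 and 6.14 in replicate 2, stronger than its promoter.

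**Figure D3:**
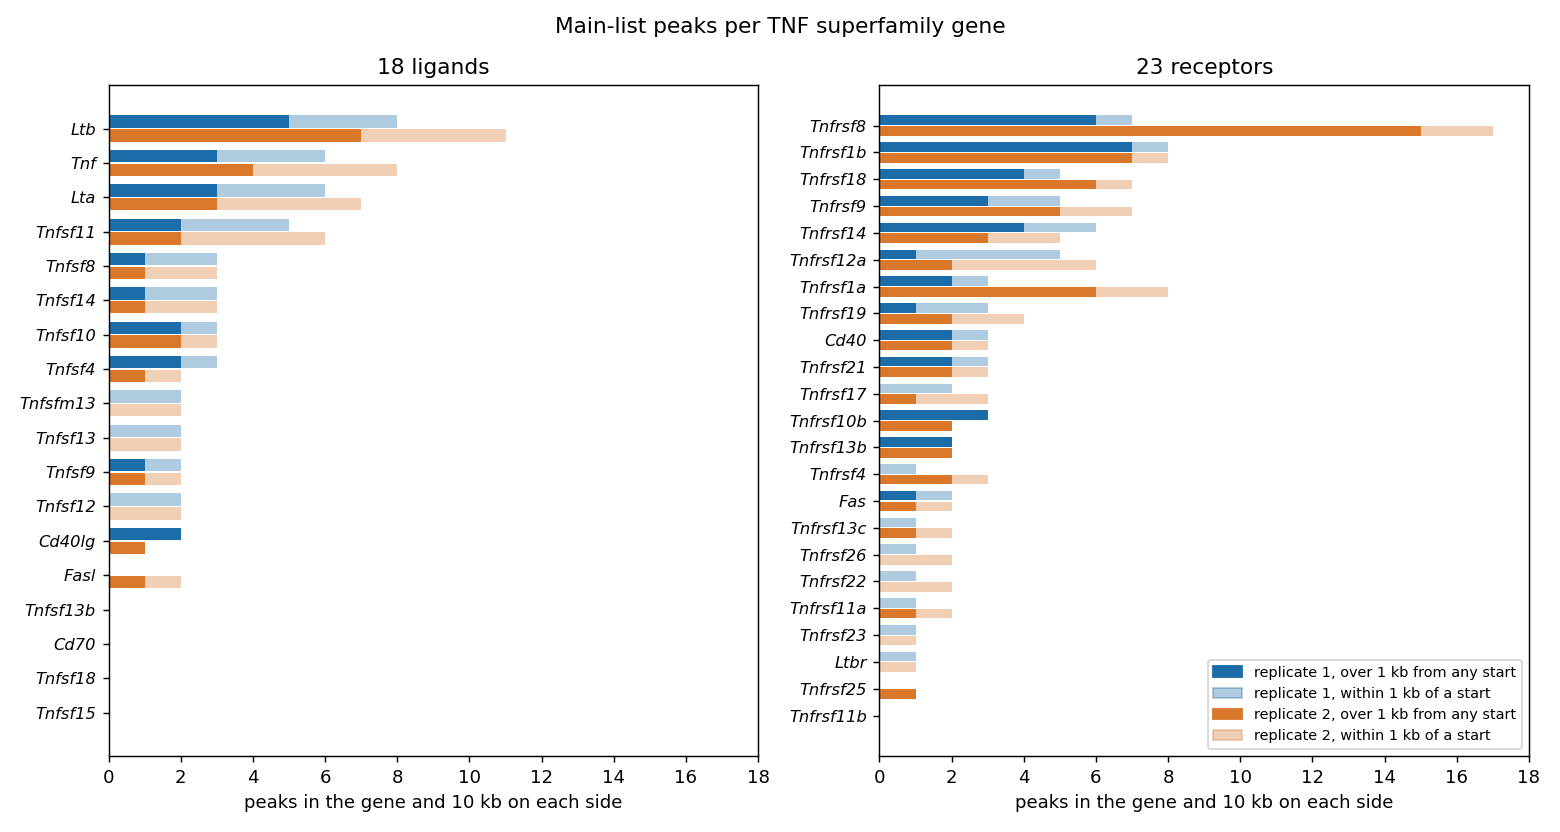
Number of main-list peaks in each gene and 10 kb on each side (x axis) for ligands (left) and receptors (right), 1 bar per library, split into peaks over 1 kb from any protein-coding start (dark) and peaks within 1 kb of one (pale). Tnfrsf8 shows the largest gap between libraries, 7 against 17, and 4 ligands and 1 receptor have no bar in either library.

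Member promoters are poor in CpG. In the window of 250 bases before to 50 after the most 5′ start, the median ratio of observed to expected CpG was 0.341 for ligands and 0.441 for receptors, against 0.552 for all protein-coding genes. All 18 ligands lay under a ratio of 0.6, as did 16 of 23 receptors, and 53.6% of all genes. Among promoters under that ratio, 8 of 18 ligands (44.4%) and 9 of 16 receptors (56.3%) were open, against 25.8% of all genes. Of the 7 receptors at or above it 6 were open, against 85.3% of all genes. The exception was Tnfrsf10b.

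Within the family the highest signal did not go with the highest CpG ratio. No ranking over all open members was computed. Ltb, with the highest signal, had a ratio of 0.182, and Tnfrsf11a, with the highest ratio (0.939), had a mean signal of 1.11. Open promoters under a ratio of 0.6 had a median signal of 1.82 for ligands and 1.72 for receptors, against 3.38 for all such genes. Open receptor promoters at or above it had a median of 2.28, against 6.50 for all such genes. Within each class that holds open members, their median signal thus lay below that of all genes. Single members differed: under 0.6, Ltb, Lta, Tnfsf14 and Fas lay above the median of all such genes. The other open members of that class lay below it.

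**Figure D4:**
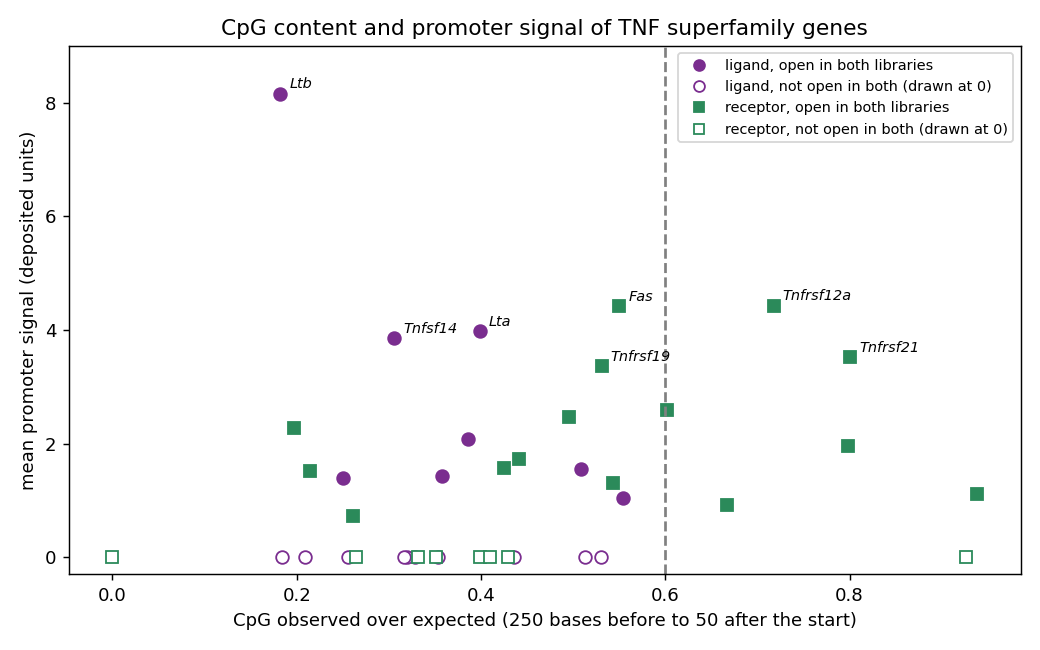
Mean promoter signal of each member (y axis, deposited units) against the ratio of observed to expected CpG around its start (x axis), with filled marks for members open in both libraries and open marks, drawn at 0, for the rest; the dashed line marks 0.6. All ligands lie left of the line, and Ltb, at 0.182, is the highest.

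Consensus matches were counted in the same window. The NF-kB consensus was found at 3 of 18 ligands (16.7%) and 3 of 23 receptors (13.0%), against 9.34% of all protein-coding genes. The E-box CAGCTG was at 2 ligands (11.1%) and 7 receptors (30.4%), against 15.6% of all genes. The RUNX consensus TGTGGT was at 1 ligand (5.56%) and 5 receptors (21.7%), against 15.0%. For CTTTGA of TCF7 and LEF1 the counts were also 1 (5.56%) and 5 (21.7%), against 15.6%. The GATA consensus AGATAA was at 1 ligand (5.56%) and 1 receptor (4.35%), against 9.91%. The ETS consensus CCGGAAG was at 0 ligands and 3 receptors (13.0%), against 11.2%. That of CTCF was at 0 ligands and 1 receptor (4.35%), against 1.68%. Both strands were searched. The counts are too small to order the families.

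Genes that carry the signal inside the cell were open for 28 of 28 listed, against 53.4% of all protein-coding genes. Their median signal was 5.61, near the 5.59 of all open genes. All 6 TRAF adaptors were open, led by Traf2 (13.8 in replicate 1 and 16.7 in replicate 2) and Traf5 (14.7 and 10.6). All 5 genes of death domain adaptors and caspases were open, led by Fadd (7.64 and 8.19), the adaptor of Fas, and Ripk1 (7.85 and 6.61), a kinase of the TNF receptor 1 complex. These 4 named genes had signals above that of any open receptor among the 23 in both libraries, while others of both lists, such as Cflar (2.68 and 2.30), did not.

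All 7 ubiquitin ligases of the IAP family and kinases were open, led by Map3k14 (16.8 in replicate 1 and 21.7 in replicate 2), which encodes NIK, the kinase of the non-canonical NF-kB pathway downstream of RANK, CD40 and the lymphotoxin beta receptor. Birc2, which encodes cIAP1, had 8.98 and 8.60. All 5 NF-kB subunits were open, led by Relb (10.4 and 14.5) and Nfkb2 (5.93 and 6.18), which form the dimer of that pathway. All 5 inhibitors were open, led by the deubiquitinase gene Cyld (14.5 and 15.8) and by Nfkbib (10.6 and 13.9), which encodes an inhibitor of NF-kB. Whether other genes start at these promoters was not checked.

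Of 6 genes of the superfamily that the naming rule leaves out, 4 were open. Relt, a receptor of lymphoid tissue, had 12.7 in replicate 1 and 7.55 in replicate 2. Cd27, the receptor of CD70, had 4.66 and 4.60, while Cd70 itself had no promoter peak. Ngfr, the neurotrophin receptor, had longer-list peaks only, of 0.591 and 0.620. Eda2r, named after its value was seen, had a main-list peak of 0.474 in replicate 1 only.

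Members were also neighbours of each other. Of 41 members 22 lay in 9 groups with gaps of at most 100 kb between genes, and 13 of these were open, against 10 of the 19 that lay alone. Both counts lie near the share over all protein-coding genes, 53.4%. Both members were open in the pairs Tnfrsf1b with Tnfrsf8 and Ltbr with Tnfrsf1a. Tnfsf4 was open beside Tnfsf18, Tnfsf8 beside Tnfsf15, and Tnfrsf18 beside Tnfrsf4, where the neighbour was not. In the groups of 3, open members numbered 2 among Ltb, Tnf and Lta, 2 among Tnfsf9, Cd70 and Tnfsf14, 2 among Tnfrsf26, Tnfrsf22 and Tnfrsf23, and 0 among Tnfsfm13, Tnfsf13 and Tnfsf12. Open members and members that were not open stood side by side in 6 of the 9 groups. The same count was not made for neighbouring genes outside the family.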

How the data were processed

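DNase-seq of thymus tissue gave 2 libraries of 1 group. Per the labels the assembly is mm10. Aligner, peak caller, thresholds and depth were not given in the sources used here. Per library the authors deposited 2 peak lists with 1 signal value per peak, a footprint list of which positions alone were used, and base runs with q-values.

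The shorter list was the main list. Peaks were placed by their centre on start sites of the GENCODE M21 basic annotation, for 21938 of 21951 protein-coding genes; those of the mitochondrial chromosome were left out. Promoters took 1 kb, spans the gene and 10 kb on each side. Values are per library, or mean ± SD over 2. Shares stand beside the same over all genes; no test was run. Sequence came from GRCm38 (RefSeq). Python 3.11.15, NumPy 2.4.6 and SciPy 1.17.1 were used, and peak placing was tested on simulated data. Members, lists and motifs were chosen with earlier results of these data known. Named were all members, the 8 with the most peaks, all pairs of the textbook list, and per pathway list the 2 highest and those without a peak. Alternatives were other windows, flanks, peak lists, start sites and single libraries.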

Additional observations from a re-analysis of the deposited data

How the results depend on the processing

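The number of open ligands (8) and receptors (15) stayed within 1.5 times under every alternative but 1: with the stronger 50% of peaks alone 4 ligands (22.2%) and 9 receptors (39.1%) were open, against 46.2% of all genes, so that the receptors also lay below all genes. Leaving out 1 library gave 8 to 9 ligands and 15 to 16 receptors, since Fasl and Tnfrsf26 had main-list peaks in replicate 2 only. Within 2500 bp the counts were 9 and 17, with Tnf, Tnfrsf9 and Tnfrsf13b added, and the comprehensive annotation, chosen after seeing the data, also added those 2 receptors. The share of open receptors exceeded that of ligands under all alternatives run. Median peaks per ligand (2) and per receptor (2.5) moved with the span: 1 and 1 without a flank (0.5 over all genes), 7 and 7 with 50 kb (5 over all genes), 3.25 and 4.5 in the longer list (3), and 1 and 1 for the stronger 50% (1). For ligands the median was 2.25 when any overlap counted, and 1.75 without peaks near starts of other genes, an alternative chosen after seeing the data, against 2 for receptors and 1 over all genes. Leaving out 1 library gave medians of 2 to 2 for ligands and 2 to 3 for receptors. The promoter signal moved by more than its SD for 3 of 23 open members within 500 bp, for 2 within 2500 bp and for 0 in the longer list. Leaving out Tnfsfm13, chosen after seeing the data, kept 8 open ligands. No paired analysis was possible because there is only 1 group. Depth is unknown, so a promoter without a peak is one not detected at this depth and threshold.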
